A study of Rattus norvegicus with 113 samples.

Results

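Sham surgery was compared with no surgery in the rat hippocampus at 2 weeks. The members were found by their sample titles: 4 arrays of sham hippocampus at 2 weeks and 4 arrays of naive hippocampus of the same interval, 8 of the 113 arrays of the series. All were adult male Sprague-Dawley rats, and each array held the RNA of 1 hippocampus sample. Sham rats received isoflurane anesthesia and ventilation, a scalp incision, a trephined hole in the skull over the right parietal dura and a bonded syringe hub, but no fluid percussion pulse. Naive rats underwent neither anesthesia nor any operation. The groups therefore differ by anesthesia, incision and craniotomy at once, and these cannot be told apart here. The series as a whole follows fluid-percussion traumatic brain injury (TBI), in which the same surgery is followed by a pressure pulse on the dura, in hippocampus and cortex from 24 hours to 12 months. Groups of 4 arrays each were set beside the comparison: hippocampus TBI at 2 weeks, sham and naive hippocampus at 6 and 12 months, and sham and naive cortex at 2 weeks.

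The hippocampus is a layered structure of dentate granule cells and CA1 to CA3 pyramidal neurons that serves memory and carries a dense load of glucocorticoid receptors. Craniotomy opens the skull next to the meninges, and isoflurane and stress hormones act on the whole brain. Immediate early genes such as Fos and Egr1 are transcribed within minutes of neuronal activity, Fkbp5 is switched on by glucocorticoids, and globin transcripts in brain tissue come largely from blood cells left in the vessels.

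Levels are given as log2 of the scanner's processed signal minus the median of the array, so 1 unit is a 2-fold step and 0 is the median probe. Testing was limited to probes that all 4 arrays of either group showed well above background, and a probe was called where its adjusted p was under 0.05. The share of the 45598 probes well above background was 53.9 to 58% in the naive arrays and 59.2 to 60.9% in 3 sham arrays, while the third sham array had 46.5%. The hippocampal genes C1ql2 of the dentate gyrus (6.5 to 7.32), Wfs1 and Fibcd1 of CA1 (6.36 to 6.93 and 5.96 to 7.15) and Bok (7.37 to 7.95) were well above background in all 8 arrays and above every value of 7 cortex arrays, while Prox1 of granule cells (6.16 to 6.56) lay within the cortex range. The granule cell gene Tdo2 was above background in 0 of the 8 arrays and the CA3 gene Iyd in 1. The 4 naive arrays lay on 1 slide, without any other of the arrays compared here. The 4 sham arrays lay on another, shared with the 4 hippocampus TBI arrays, so slide and group cannot be told apart at 2 weeks.

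Of 23767 probes tested, 2133 (8.97%) were called, 1394 (5.87%) higher in sham and 739 (3.11%) lower. The rises were larger: their median size was 0.49 and 113 reached a 2-fold change, beside a median size of 0.33 and 17 such probes among the falls. Without the third sham array 845 probes were higher and 355 lower, 1200 in all, and the total was 1148 without the fourth sham array, 1215 without the second and 1322 without the third naive array. At the fold of 1.4 with an unadjusted p under 0.05 that the methods name, 983 probes (4.14%) were higher and 379 (1.59%) lower. The balance of directions moved with the scaling: rises made up 65.4% of calls here, 51.2% after scaling to the 75th percentile (1442 higher, 1374 lower), 46.4% in the authors' value table (1377 higher, 1590 lower) and 87.5% after normexp background correction (1533 higher, 218 lower). Taking 1 probe for each of 11056 named genes, 828 (7.49%) were called, 408 (3.69%) higher and 420 (3.8%) lower. Arrays of the groups did not overlap for 2195 probes higher in sham (9.24%) and 1888 lower (7.94%), and for 734 genes higher (6.64%) and 1091 lower (9.87%), whether called or not. Probes without a gene name were more often higher. Among 3490 probes known only by an Ensembl transcript, 365 were higher and 141 lower, and among 2835 probes of predicted mRNAs without a name 220 were higher and 39 lower.

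Signal level went with direction. Among the 4754 brightest probes 162 were higher and 299 lower, and among the 4754 dimmest 292 were higher and 72 lower. Under quantile normalization the brightest probes split into 289 higher and 206 lower. After normexp correction they split into 240 higher and 47 lower, and after scaling to the 75th percentile into 173 higher and 662 lower. The direction among the brightest probes thus depended on the scaling. The plot of calls by level shows the counts for each scaling, and the part of signal level in the calls was not tested further.

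**Figure D1:**
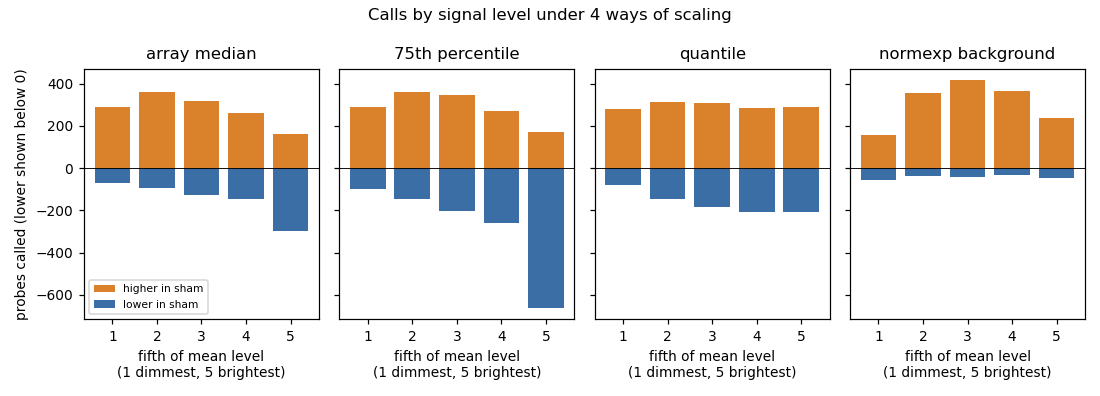
Number of probes called in each of 5 bins of mean level, from the dimmest (1) to the brightest (5), under 4 ways of scaling; bars above 0 count probes higher in sham and bars below 0 probes lower in sham. In the brightest bin falls outnumber rises under array-median scaling (299 against 162) and 75th percentile scaling (662 against 173). They do not under quantile normalization (206 against 289) or normexp (47 against 240).

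The largest rises among named genes measured above background in all 8 arrays were led by Cox6c-ps1, named as a pseudogene of a cytochrome c oxidase subunit, at 2.82-fold, and Rtn4rl1, a Nogo-receptor family member that restrains axon growth, at 2.78-fold. Rtn4rl1 read 0.65, 0.41, 0.75 and 0.60 in the naive arrays and 2.17, 2.08, 2.16 and 1.90 in the sham arrays. Every sham array thus lay over 1 unit above every naive array, and the difference was 1.47 ± 0.096 (SE, adjusted p = 2.2e-05). Cox6c-ps1 read 0.93, 0.99, 1.4 and 1.47 in naive and 2.47, 2.77, 2.79 and 2.75 in sham, a difference of 1.5 ± 0.128. Probes of the parent gene Cox6c did not rise: the brighter one fell by 0.34 and the other differed by -0.05 (adjusted p = 0.753). The same held for Rpl17l5, a ribosomal protein L17 copy that rose by 1.26, beside Rpl17 itself at -0.22 (adjusted p = 0.078) and -0.04. Whether a probe also reads such near-identical copies was not tested, so these values are uncertain.

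Of the 15 largest rises, 12 had a mean level under 3 on this scale. Among the 3 brighter ones, Gpd1 encodes cytosolic glycerol-3-phosphate dehydrogenase, which links glycolysis to lipid synthesis. Gpd1 read 6.21, 6.29, 6.03 and 6.38 in naive and 7.15, 7.07, 7.26 and 7.34 in sham, with no overlap, and was higher by 0.97 ± 0.131 (adjusted p = 0.00135). Zeb2, a zinc-finger transcription factor of neural and glial development, read 4.14, 3.88, 3.77 and 4.49 in naive and 5.84, 4.97, 5.52 and 5.04 in sham, a rise of 1.27 ± 0.219. Dagla, which makes the endocannabinoid 2-arachidonoylglycerol, rose by 0.89 ± 0.174, from 3.67 to 4.60 in naive to 4.74 to 5.20 in sham.

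The other rises covered several roles. The ubiquitin ligase gene Rchy1 rose by 1.37, the chromatin remodeller gene Ep400 by 1.33, and Nudt9, an ADP-ribose hydrolase gene, by 1.18. Cpox, of haem synthesis, rose by 1.15 and Reep5, which shapes the endoplasmic reticulum, by 1.08. Tmem229a, Helz, Med14 and Slc4a11 rose by 0.92 to 0.99. Nudt9 lost its call under 10 of the 17 alternatives run (adjusted p up to 0.131), Tmem229a under 7 and Helz under 5. Cox7c, a cytochrome c oxidase subunit gene, rose by 1.54 from a level where 1 naive array was not well above background. It entered the test through the sham group alone, where it is high, so the size is uncertain.

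**Figure D2:**
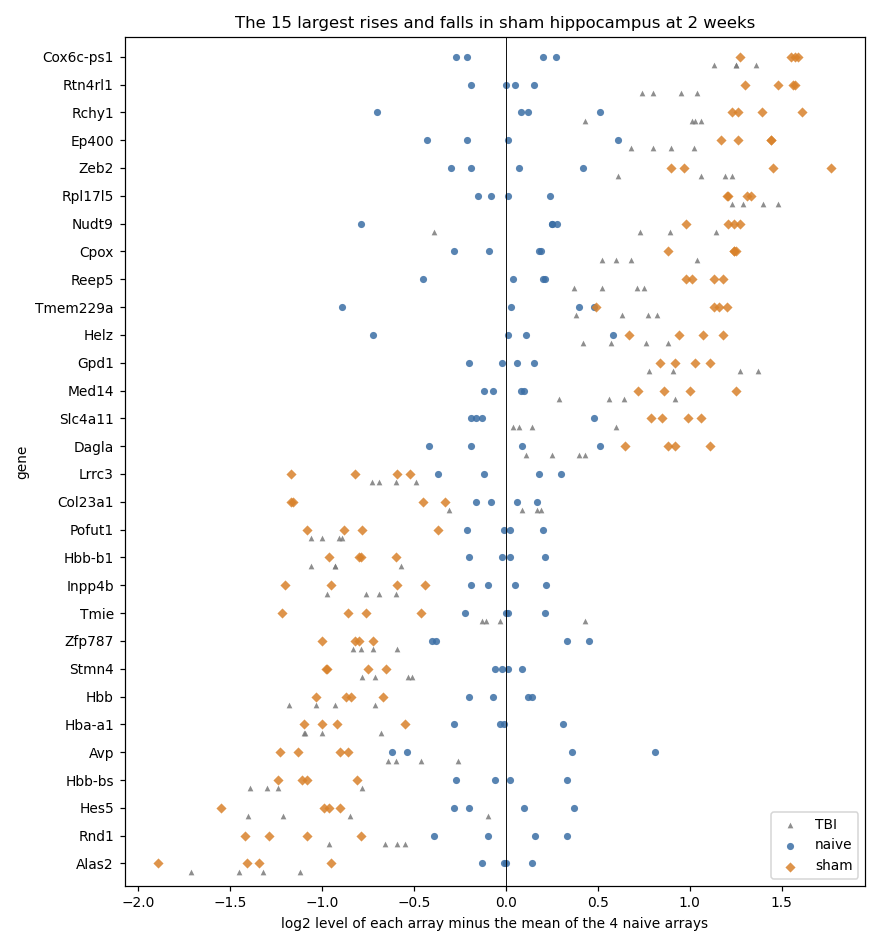
Level of the 15 named genes of largest rise and the 15 of largest fall in each hippocampus array at 2 weeks, as log2 minus the mean of the 4 naive arrays (circles naive, diamonds sham, triangles TBI). The sham points of each gene lie on 1 side of its naive points, which the rule for naming these genes required, and the TBI points, from the sham arrays' slide, are shown beside them.

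Among genes above background in all 8 arrays the largest fall was that of Alas2, and 4 globin genes were among the 15 largest. Alas2, which starts haem synthesis in erythroid cells, read 3.70, 3.84, 3.69 and 3.57 in the naive arrays and 2.75, 2.29, 1.81 and 2.36 in the sham arrays, and fell by 1.4 ± 0.176 (adjusted p = 8.84e-04, 2.64-fold). The alpha globin gene Hba-a1 read 10.42, 10.76, 10.44 and 10.17 in naive and 9.90, 9.45, 9.35 and 9.53 in sham, a fall of 0.89 ± 0.149. Beta globin, Hbb, read 9.11, 9.30, 9.32 and 8.98 in naive and 8.51, 8.34, 8.15 and 8.31 in sham, a fall of 0.85 ± 0.117. The groups did not overlap for any of these 3 genes. Of the 10 genes of the blood list 7 were tested, and 6 were called, each lower: Slc4a1, the anion exchanger of the red cell membrane (-1.63), Alas2, Hba-a1, Hbb, Hbb-b1 (-0.79) and Hba-a2 (-0.75). Slc4a1 was above background in 3 of 4 sham arrays, entered the test through the naive group alone and lost its call under 3 of 16 alternatives. Over all named genes 3.8% were called lower. A further beta globin gene outside the list, Hbb-bs, fell by 1.07 ± 0.155. The list median was -0.85, beside -0.01 over the 11056 named genes, and it stayed between -0.89 and -0.73 under the other scalings and -0.79 without the third sham array, with 6 members called each time. Its summed linear level was 3540 to 4930 in naive and 2080 to 2810 in sham, and 1980 to 2690 in the TBI arrays. Alpha globin and beta globin probes each share sequence with their neighbouring copies, so the globin genes are not separate measurements. In such bulk tissue fewer cells of a type and less RNA per cell cannot be told apart.

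Stretches of Hba-a1 and Alas2 are shown because both genes were lower and both stretches hold the letters GATAA, bound by erythroid GATA factors. The sequences are RefSeq's on build GRCr8, the 250 bases before the transcript start that the promoter table uses, 5′ to 3′ on the gene's strand, with matches on either strand in capitals. Hba-a1 lies at chr10:15842581-15842830 on the minus strand and Alas2 at chrX:22895200-22895449 on the plus strand. The Alas2 gene as annotated spans chrX:22890650-22914046, so its stretch lies inside the gene and not before its outermost start.
Hba-a1: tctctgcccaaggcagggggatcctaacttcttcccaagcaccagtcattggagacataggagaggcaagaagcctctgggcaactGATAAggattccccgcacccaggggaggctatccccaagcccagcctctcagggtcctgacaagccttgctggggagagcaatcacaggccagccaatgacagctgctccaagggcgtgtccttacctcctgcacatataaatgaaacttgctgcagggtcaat
Alas2: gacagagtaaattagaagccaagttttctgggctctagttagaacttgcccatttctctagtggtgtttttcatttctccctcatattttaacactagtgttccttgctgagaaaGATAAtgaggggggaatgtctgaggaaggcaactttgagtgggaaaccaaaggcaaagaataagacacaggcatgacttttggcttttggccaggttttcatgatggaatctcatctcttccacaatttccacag
GATAA stands in 3 of the 5 called blood genes that the promoter table holds, and in 23.2% of all 27457 promoters of this length. A match is a description of the letters only.

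Of 21 immediate early genes tested 4 were called lower, beside 3.8% of all named genes. Fos, a subunit of the AP-1 transcription factor, read 3.27, 2.56, 3.04 and 3.6 in naive and 2.28, 2.82, 1.56 and 1.93 in sham, and was lower by 0.97 ± 0.256 (adjusted p = 0.0382) with overlap at 1 sham array. Egr1, a zinc-finger factor of synaptic plasticity, read 3.68, 3.45, 3.35 and 3.71 in naive and 2.73, 3.36, 2.43 and 2.74 in sham, a fall of 0.73 ± 0.169 with the second sham array just inside the naive range. Junb, a partner of Fos, read 4.69, 4.61, 4.06 and 4.58 in naive and 3.67, 3.91, 3.59 and 3.76 in sham, a fall of 0.75 ± 0.135 with no overlap. Ier2 fell by 0.44 ± 0.0953, also without overlap. No member of the list was called higher, and the list median was -0.13 (-0.20 to -0.03 under the other scalings). The activity-regulated factor Npas4 had the largest difference of the list, -1.52, and was not called (adjusted p = 0.0711), and Arc differed by -0.35 (adjusted p = 0.379). Junb was called under each of the 17 alternatives run, while Fos lost its call under 10 (adjusted p up to 0.128), Egr1 under 7 (up to 0.0843) and Ier2 under 2. Without the third sham array 2 members were called.

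Ier2 carries the full cyclic-AMP response element TGACGTCA, through which activity-dependent factors act on many early genes, and Junb does not within this window. The Ier2 stretch at chr19:40399123-40399372, plus strand, is shown with the element in capitals.
Ier2: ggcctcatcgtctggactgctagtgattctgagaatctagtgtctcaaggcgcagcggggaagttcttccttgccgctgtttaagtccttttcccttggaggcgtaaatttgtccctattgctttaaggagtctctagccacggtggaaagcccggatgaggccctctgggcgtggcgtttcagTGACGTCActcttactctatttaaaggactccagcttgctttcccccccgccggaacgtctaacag
The element stands in 1.7% of all promoters of this length and in 1 of the 3 called early genes that the table holds.

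**Figure D3:**
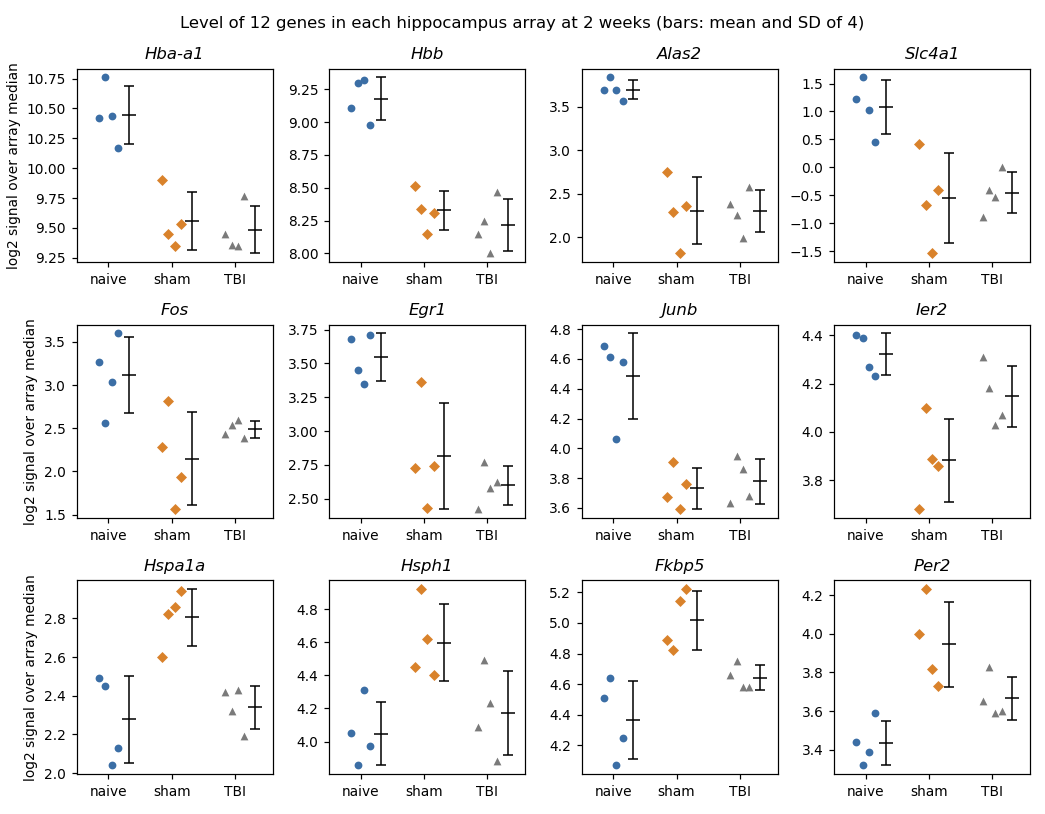
Log2 level over the array median of 12 genes in each of the 4 naive, 4 sham and 4 TBI hippocampus arrays at 2 weeks, with the mean and SD of each group. The blood genes (top row) and Junb are lower in every sham array than in every naive array, and the heat shock gene Hspa1a, Fkbp5 and Per2 are higher in every sham array. For Slc4a1 the lowest naive value (0.46) and the highest sham value (0.42) lie close. It was well above background in 3 of 4 sham arrays and entered the test through the naive group alone.

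Of 17 heat shock and chaperone genes tested 3 were called, each higher, beside 3.69% of all named genes called higher. These were Hsph1, a large co-chaperone of Hsp70 (0.55 ± 0.151), Hspa1a, inducible Hsp70 itself (0.53 ± 0.115), and Hspd1, the mitochondrial chaperonin (0.27 ± 0.0683). Hsph1 and Hspd1 each lost the call under 10 of the 17 alternatives and Hspa1a under 3. Hspa1a read 2.49, 2.45, 2.04 and 2.13 in naive and 2.6, 2.82, 2.86 and 2.94 in sham. The median over the list was 0.16 and ranged from 0.13 to 0.26 under the other scalings, and without the third sham array 0 members were called with a median of 0.19. Bag3 and Cryab had differences of 0.46 and 0.43 (adjusted p = 0.0521 and 0.055), while constitutive Hspa8 and Hsp90aa1 each differed by -0.06.

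Hsph1 and Hspd1 hold the core of the heat shock element, TTCNNGAA, before the starts that the table uses, which is why they are shown. Hsph1 lies at chr12:10427118-10427367, plus strand, and Hspd1 at chr9:64084038-64084287, minus strand, with matches in capitals. The annotated Hspd1 gene spans chr9:64073610-64084332, so its stretch lies inside the gene.
Hsph1: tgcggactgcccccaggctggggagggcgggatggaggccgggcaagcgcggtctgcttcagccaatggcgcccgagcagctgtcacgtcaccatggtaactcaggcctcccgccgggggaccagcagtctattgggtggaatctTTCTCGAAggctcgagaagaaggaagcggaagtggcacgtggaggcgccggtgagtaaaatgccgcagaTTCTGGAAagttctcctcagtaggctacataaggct
Hspd1: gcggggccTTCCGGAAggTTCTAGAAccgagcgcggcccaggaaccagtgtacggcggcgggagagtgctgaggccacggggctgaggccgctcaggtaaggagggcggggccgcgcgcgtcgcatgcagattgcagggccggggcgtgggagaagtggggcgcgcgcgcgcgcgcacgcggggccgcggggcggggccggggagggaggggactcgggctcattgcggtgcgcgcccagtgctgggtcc
The core stands in 7.23% of all promoters of this length and in 2 of the 3 called chaperone genes.

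Fkbp5, the co-chaperone that dampens the glucocorticoid receptor, was the 1 called member of 16 glucocorticoid-response genes tested, where 3.69% of all named genes were called higher. It read 4.51, 4.64, 4.07 and 4.25 in naive and 4.89, 4.82, 5.14 and 5.22 in sham, and was higher by 0.65 ± 0.129 (adjusted p = 0.0114) without overlap. The list median was 0.20, and 10 of the 16 differences were above 0. Other receptor targets were not called: Sgk1 differed by 0.43 (adjusted p = 0.453), Tsc22d3 by 0.27 (adjusted p = 0.0979), Per1 by -0.27 (adjusted p = 0.131) and Ddit4 by -0.24. Of 13 clock genes tested 1, Per2, was called, higher by 0.51 ± 0.109, with naive values of 3.32 to 3.59 and sham values of 3.73 to 4.23, while its partner Cry1 differed by 0.23 and Bmal1 by -0.17. Glul, the glutamine synthetase of astrocytes, which is also steroid-inducible, rose by 0.49 ± 0.0847 (adjusted p = 0.00573), from 6.52 to 6.75 in naive to 6.99 to 7.27 in sham. The remaining 11 astrocyte markers were not called. Herpud1, of endoplasmic reticulum stress, rose by 0.52 ± 0.13, measured in 3 of the 4 sham arrays, and lost its call under 12 of 17 alternatives.

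Some genes of energy production and protein turnover, which are among the brightest on the array, fell by small amounts. Over all named genes 3.8% were called lower and 3.69% higher. Of 28 respiratory chain genes 7 were called lower, by 0.20 to 0.34: Cox6c, Cox5b, Uqcrc1, Ndufa2, Uqcrq, Atp5po and Atp5mc1. Cox7c was the 1 called higher. Of 28 ribosomal protein genes 6 were called lower, by 0.24 to 0.33, with Rps19 (-0.33), Rps29 (-0.31) and Rps18 (-0.28) in front. Of 22 proteasome genes 4 were called lower, by 0.20 to 0.31 (Psmb6, Psmb5, Psma5, Psmd4). Uqcrc1 shows the size of such a change: it read 8.23 to 8.32 in the naive arrays and 7.93 to 8 in the sham arrays. The 3 list medians were -0.12, -0.18 and -0.13. Called or not, 21, 26 and 18 of the differences were below 0, beside 5848 of the 11056 named genes. These counts depend on the scaling. After scaling to the 75th percentile 12, 14 and 8 members were lower, and under quantile normalization 2, 1 and 2, with medians of -0.04, -0.04 and -0.07. Without the third sham array 3, 4 and 1 were lower, and after normexp correction 2, 1 and 0. Other probes of a gene did not always move alike: of the 5 other Rpl32 probes 1 was called lower and 1 higher, and of the 4 other Rps19 probes 0 were called.

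Of 14 neurogenesis and immature neuron genes tested 3 were called lower, beside 3.8% of all named genes, and the list median was -0.17. Hes5, a Notch target that keeps progenitors undifferentiated, read 4.31, 4.04, 3.74 and 3.66 in naive and 3.04, 2.98, 2.95 and 2.39 in sham, a fall of 1.1 ± 0.261 (adjusted p = 0.0252). The intermediate filament gene Nes fell by 0.98 ± 0.169 and Tbr1, a factor of newborn glutamatergic neurons, by 0.62 ± 0.114. Nes was not well above background in 1 sham array, so it was tested through the naive group alone, where it is high. Outside the list Pofut1, which fucosylates Notch, fell by 0.78 ± 0.135. The immature neuron markers Dcx (-0.19, adjusted p = 0.334) and Sox11 (-0.15) were not called, nor were the neuronal factor genes Neurod1 (0.14) and Neurod2 (0.20). Stmn4, a brain stathmin that binds tubulin, fell from 7.79, 7.64, 7.68 and 7.71 in naive to 6.72, 7.05, 6.95 and 6.73 in sham (-0.84 ± 0.0921, adjusted p = 3.25e-04), and neuronal tubulin Tubb3 fell by 0.34.

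The remaining falls were of mixed kinds. Rnd1, a small GTPase that acts on the actin cytoskeleton, read 2.70, 2.41, 3.13 and 2.96 in naive and 2.01, 1.38, 1.72 and 1.51 in sham, a fall of 1.15 ± 0.171. Avp, vasopressin, fell by 1.03 ± 0.271 from a naive range of 1.97 to 3.4. Inpp4b, Tmie, Zfp787, Col23a1 and Lrrc3 fell by 0.77 to 0.84. Alox15, a lipoxygenase that oxidises arachidonic acid, fell by 1.79 ± 0.321 to a level at which 1 sham array was not well above background, and Krt36, a hair keratin gene, was lower with 3 of 4 sham arrays above background and lost its call under 10 of 16 alternatives. Niban3 was called lower with 1 of 4 sham arrays above background. These 3 genes were tested through the naive group alone, where they are high, so no size is given for the last 2. Hes5 lost its call under 6 of 17 alternatives and Avp under 8.

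Beside the 7.49% of all named genes that were called, the counts in inflammatory and glial lists were 0 or 1 of each list. None of 18 microglia and macrophage genes was called (median -0.11, differences from -0.38 to 0.11), none of 19 complement genes, none of 15 interferon-response genes and none of 13 reactive astrocyte genes, whose medians were -0.09, -0.13 and -0.09. At an adjusted p over 0.05 these counts do not show that levels were equal. Gfap, the astrocyte filament gene, ran from 5.73 to 7.45 in naive and from 6.26 to 7.63 in sham, and Aif1 of microglia from 6.11 to 6.43 and from 6 to 6.34. Among 11 cytokine genes tested 1, the interleukin-1 receptor gene Il1r1, was called lower (-0.75 ± 0.207, adjusted p = 0.0457). Il1r1 was above background in 3 of 4 sham arrays, entered the test through the naive group alone, where it is high, and lost its call under 13 of 16 alternatives. The 6 MHC class 2 genes tested had a median of -0.62 and 0 calls, and that median ran from -0.80 to -0.27 with 1 array left out. The summed level of the list was 144 in the second naive array and 81.5 to 99 in the other naive arrays. None of the 18 myelin and oligodendrocyte genes was called, with Mbp at 11.64 to 12.1 over the 8 arrays.

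Neuronal lists had 0 to 2 calls each, beside 3.69% of all named genes called higher and 3.8% lower. Kcnj6, an inwardly rectifying potassium channel, rose by 0.85 ± 0.189 and Kcnn2, a calcium-activated one, by 0.32, the 2 called among 23 channel genes. Somatostatin, Sst, rose by 0.64 ± 0.17 (adjusted p = 0.0393), from 3.97 to 4.81 in naive to 4.69 to 5.34 in sham with overlap, the 1 called of 24 genes of inhibitory neurons. Among subfield genes Cpne4 rose by 0.89, Pdzd2 by 0.52 and the hippocampal factor gene Zbtb20 by 0.51. Of these, the call was lost under 12 of 17 alternatives for Kcnn2, 11 for Sst and Zbtb20, 9 for Pdzd2, 6 for Cpne4 and 5 for Kcnj6. None of 17 glutamate receptor and transporter genes and none of 15 neurotrophin and growth factor genes was called. Epha4, of axon guidance, rose by 0.37, Pfkfb3, of glycolysis, by 0.45, and Mvk, of cholesterol synthesis, fell by 0.37. Epha4 lost its call under 9 alternatives, Pfkfb3 under 7 and Mvk under 1.

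Among marker lists of neighbouring tissue, calls outside blood were limited to Tbr1, which the cortex list also holds. The 14 meningeal and fibroblast genes tested were each lower in sham on average, with a median of -0.63, and 0 passed the test. Their summed level was 855 to 960 in 3 naive arrays, 2590 in the fourth naive array and 735 to 971 in sham, with Col1a1 at 3.28 to 4.95 in naive and 2.96 to 3.32 in sham, Col1a2 at up to 5.28 and 3.39, Col3a1 at up to 4.97 and 3.01, Lum at up to 2.28 and 2.2 and Dcn at up to 5.51 and 4.17. Of the choroid plexus genes Ttr ran from 5.9 to 7.07 in naive and from 5.43 to 7.82 in sham, Folr1 from 0.64 to 1.26 and from 0.91 to 1.42, and Kl and Clic6 were above background in 2 of 8 arrays each. The summed levels of striatal, thalamic and cortical marker lists overlapped between the groups. The striatal sum reached 517 in naive and ran from 488 to 531 in sham, the thalamic one was 63 to 103 against 62.4 to 101, and the cortical one 638 to 733 against 471 to 673. Drd2 ran from 1.86 to 2.92 in naive and 1.31 to 1.81 in sham, and Drd1 and Adora2a overlapped. Prkcd and Slc17a6 overlapped too, as did Rorb, Cux2 and Fezf2. The part of tissue content in the differences above was not tested.

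**Figure D4:**
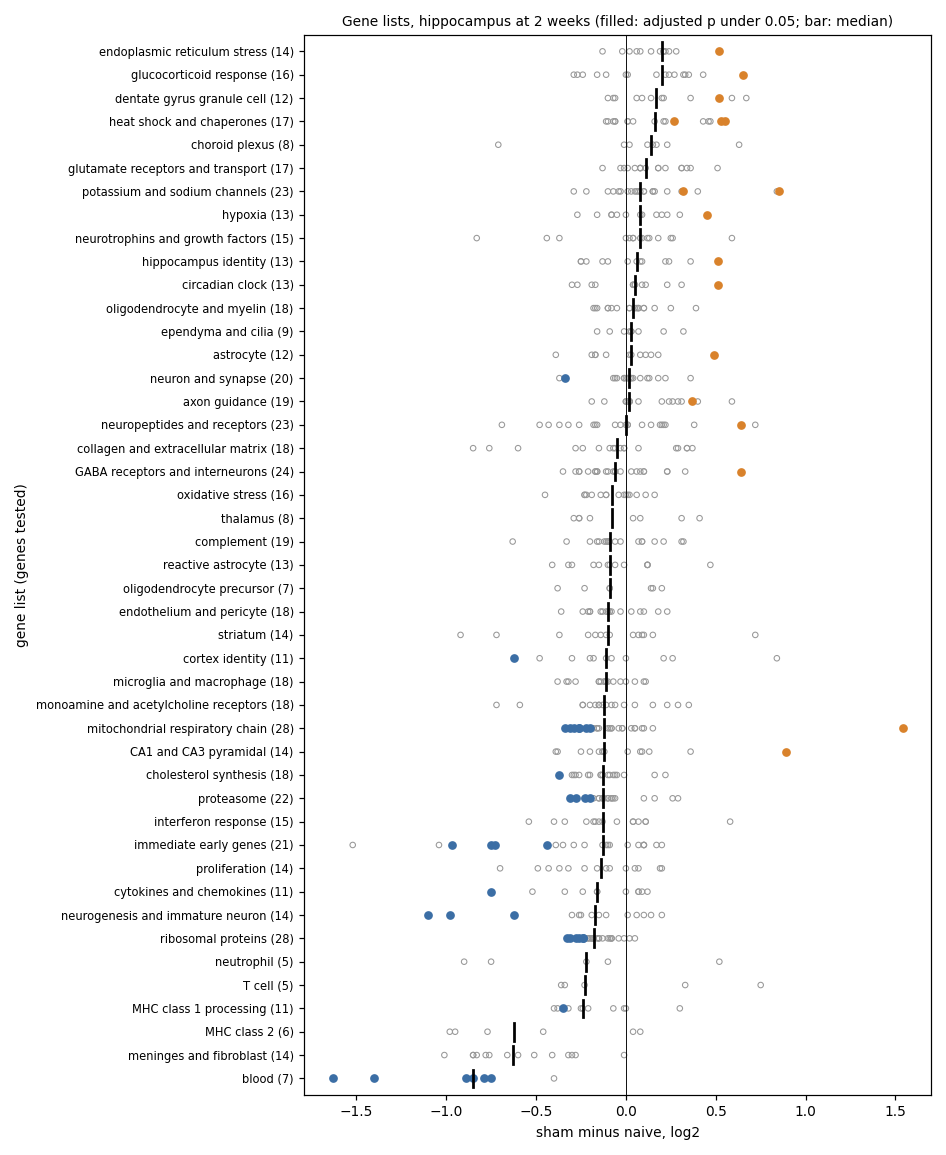
Sham minus naive log2 difference of each tested member of 45 gene lists in the hippocampus at 2 weeks, ordered by the list median (black bar); filled points passed an adjusted p of 0.05 (orange higher, blue lower) and open points did not. The blood list lies lowest, with 6 of 7 members called, and 21 lists hold no called member.

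The same probes were then read in other sham and naive groups, which share no array with the 2-week hippocampus. At 12 months sham and naive hippocampus again lay on 2 different slides, and at 6 months they shared 1 slide, as did the cortex groups at 2 weeks. Of the 1394 probes higher at 2 weeks, 1325 (95.1%) were above 0 at 12 months, with a median difference of 0.35, and 339 were called higher there while 0 were called lower. Of the 739 probes lower at 2 weeks, 713 (96.5%) were below 0 at 12 months, with a median of -0.27. Of these 739, 54 were called lower at 12 months and 0 higher. Over all 23767 probes the share with the same sign was 72%, and 616 were called at 12 months in the direction of their 2-week difference and 40 against it. At 6 months the shares were 45.2% and 38.8% (medians -0.04 and 0.08), beside 48.8% over all probes. In the cortex, read without 1 sham array that had 93% of its probes above background and scaled to the 75th percentile, they were 49.9% and 47.9%, beside 52.1% over all. Across the 23767 probes the 2-week differences correlated with those at 12 months at r = 0.57, at 6 months at r = -0.06 and in the cortex at r = 0.1, a description in which probes are not independent. Over the called probes together the share of recurring signs was thus above that of all probes at 12 months, and below it at 6 months and in the cortex. Over all probes the median difference at 6 months was 0.09, which bears on the shares of rises and falls. These comparisons differ in interval, tissue, slide layout and spread of the arrays at once. Named genes called higher were not below the share of all probes, at 55.1% in the cortex and 49.3% at 6 months. Named genes called lower were at 46.9% and 34.3%. Slide and group cannot be told apart at 2 weeks or at 12 months, and the part of the slide was not tested.

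The differences between comparisons were tested as well. At 2 weeks against 6 months 1343 of 23813 probes (5.64%) differed, 399 with a higher sham effect at 2 weeks and 944 with a lower one. This balance turned to 2477 higher and 2080 lower with 75th percentile scaling, to 2434 and 2152 in the authors' table and to 2911 and 1370 without the second 6-month naive array. Against 12 months 0 of 25455 differed at the adjusted threshold of limma, with 1252 (4.92%) at an unadjusted p under 0.05. Sham against naive itself gave 743 calls at 6 months (3.54%) and 786 at 12 months (3.11%). Of 22600 cortex probes 1 (0.00442%) was called without the third sham array, and with all 8 arrays and median scaling 0 of 22571 were, with 11 (0.0487%) at an unadjusted p under 0.05. The naive arrays at 6 months varied widely, with 41.2 to 72.5% of probes above background, and leaving out 1 of them moved 1343 to as many as 4281. Against the cortex 0 of 24336 probes differed, with 251 (1.03%) at an unadjusted p under 0.05. It was 17 with 75th percentile scaling, 21 without that 1 cortex sham array and 1235 with both changes together. Of the 15 largest rises 14 were above 0 at 12 months and 9 were called there, and 7 were above 0 at 6 months. Cox6c-ps1 measured 1.76 ± 0.245 at 12 months and -0.89 ± 0.253 at 6 months, Rtn4rl1 1.27 ± 0.181 and -0.29 ± 0.329, and Rpl17l5 1.31 ± 0.149 and -0.52 ± 0.205.

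**Figure D5:**
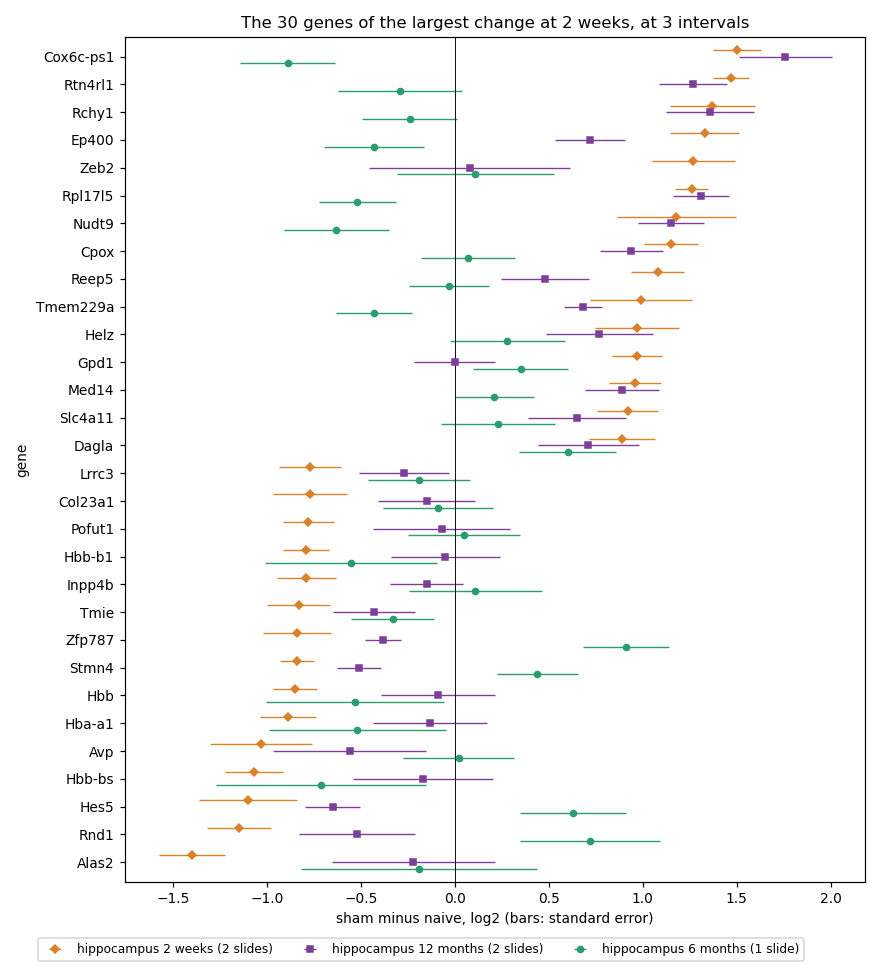
Sham minus naive log2 difference with its standard error for the 30 named genes in the hippocampus at 2 weeks, 12 months and 6 months, 4 arrays per group. Most rises stand at a like size at 2 weeks and 12 months (Cox6c-ps1 1.5 and 1.76) and below 0 or near it at 6 months, while Gpd1, Zeb2 and the blood genes lie near 0 at 12 months.

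Some genes had other values at 12 months. The 6 called blood genes, at -1.63 to -0.75 at 2 weeks, lay between -0.22 and 0.42 at 12 months, between -0.55 and -0.19 at 6 months and between -0.93 and -0.07 in the cortex. Slc4a1 gave the -1.63, the 0.42 and the -0.93. It entered the 2-week test through the naive group alone, where it is high, and was not above background in a whole group at 6 or 12 months. Next lowest at 2 weeks was Alas2, at -1.4. The 4 called immediate early genes lay between -0.14 and 0.26 at 12 months and between 0.17 and 1.77 at 6 months, and for Egr1 and Junb the 2-week and 6-month effects differed (by -2.51 and -1.46, adjusted p = 2.98e-05 and 0.00199). Gpd1 read 0.97 at 2 weeks, 0.77 ± 0.18 in the cortex, 0.35 ± 0.252 at 6 months and 0.00 ± 0.216 at 12 months. Zeb2 read 1.27, 0.57 ± 0.305, 0.11 and 0.08 in the same order. Neither gene was called in the cortex (limma, adjusted p = 0.151 for Gpd1 and 0.373 for Zeb2). At 2 weeks the Fkbp5 difference was 0.65 in hippocampus and 0.75 ± 0.195 in cortex (adjusted p = 0.164 for the latter), beside 0.25 ± 0.126 at 12 months and -0.07 ± 0.239 at 6 months. None of the differences from 12 months passed the test for these genes, with adjusted p = 0.979 for Alas2 and 0.843 for Gpd1. By contrast, called ribosomal, respiratory chain and proteasome members lay between -0.36 and -0.19 at 12 months, beside -0.34 to -0.20 at 2 weeks, leaving out Cox7c, at 1.92 ± 0.162. On the shared slide of 6 months the 6 called ribosomal genes lay between -0.39 and -0.18, the same sign as at 2 weeks, while the 7 respiratory chain genes lay between -0.28 and 0.33 and the 4 proteasome genes between -0.08 and 0.12.

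TBI arrays, which share the sham arrays' slide, were set against the same 4 naive arrays, so their differences are not independent of those of sham. TBI minus naive was -1.4 for Alas2, -0.96 for Hba-a1, 1.25 for Cox6c-ps1, 0.88 for Rtn4rl1 and 1.08 for Gpd1. It was 0.28 for Fkbp5, 0.06 for Hspa1a, 0.12 for Hsph1, 0.30 for Dagla and 0.04 for Tmie, whose sham differences were 0.65, 0.53, 0.55, 0.89 and -0.83. The summed microglia and macrophage level was 1030 to 1930 in the TBI arrays, above the 625 to 888 of the sham and the 789 to 988 of the naive arrays.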

How the data were processed

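RNA of microdissected hippocampus was amplified, labelled and hybridised to 1-colour Agilent arrays, with 4 independent rats per group by the study's methods. The deposited files hold the scanner's processed intensity of each spot from Agilent Feature Extraction 11.5.1.1, and the authors' value table holds these intensities divided by 1 constant per array, near the 75th percentile, with a lowest value of 0.01. The authors scaled to the array median for their own tests.

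Here the log2 intensity minus the array median was used. Spots marked as outliers were dropped and spots of a probe averaged. Of the 45598 probes 21109 (46.3%) were named through a RefSeq table of assembly GRCr8, and a gene with several probes was read from its brightest. limma 3.58.1 in R 4.3.3 was fitted to the 12 naive, sham and TBI hippocampus arrays, with Benjamini-Hochberg adjustment over all 23767 probes tested and a threshold of 0.05. The same script was tested on simulated data. Differences from 6 months, 12 months and cortex were interaction terms. Processed intensities carry no read depth, and the number of arrays limits the precision.

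Alternatives were the 75th percentile, quantile normalization, the authors' table, normexp (offset 50, on median signals, as a mean signal column was not used here), the filters, the groups fitted, array weights, a replicate block and leaving out each array. Named genes were the 15 largest rises and 15 largest falls among called genes whose groups did not overlap and that were above background in all 8 arrays, up to 5 each way without that last condition, up to 6 called members of each list, and marker genes. Hbb-bs and Pofut1 came by the first part of the rule, and Npas4, Arc and other uncalled members were named after their values were seen. The members and the 45 lists were chosen with earlier results of these data known. Cortex differences of single genes, lists and recurring signs come from 75th percentile scaling without 1 sham array, a choice made after seeing the data. The cortex ranges of marker genes leave out the same array but use median scaling. The main test of hippocampus against cortex used median scaling and all arrays. Results for some genes are not reported here.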

Additional observations from a re-analysis of the deposited data

Results flagged for a closer look

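Single arrays stood apart from the other 3 of their group in 8 of the 82 sets of 4 values examined, where chance gives about 1 in 20. The share of probes well above background was 46.5% in the third sham array of the hippocampus at 2 weeks and 93% in the third sham array of the cortex. The first sham array was the lowest of its group for Cox6c-ps1 (2.47), Cpox (1.31) and Tmem229a (1.57), and the fourth for Hes5 (2.39). One naive array lay lowest for Nudt9 (-0.03) and 1 highest for Slc4a11 (1.69).

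The sham effect at 2 weeks differed from that at 6 months for 1343 probes by the interaction term of limma. Among named genes the 2-week effect was the higher one for Cox6c-ps1 (by 2.38), Cox7c (2.16), Nudt9 (1.81), Rpl17l5 (1.78), Rtn4rl1 (1.76), Ep400 (1.76), Rchy1 (1.61), Tmem229a (1.42), Reep5 (1.11) and Cpox (1.09). Cox7c entered through the 2-week sham group alone, where it is high, and was not above background in a whole group at 6 months. Its difference is therefore uncertain. The 2-week effect was the lower one for Rnd1 (-1.87), Zfp787 (-1.75), Hes5 (-1.73) and Stmn4 (-1.28). The groups lay on different slides at 2 weeks and on 1 slide at 6 months, and the part of the slide in these differences was not tested.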

How the results depend on the processing

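The 2133 calls at 2 weeks became 655 with no filter on dim probes, 1227 with the TBI arrays left out of the fit, 1538 with the replicate number as a block and 1148 to 2163 with 1 array left out. Numbers did not pair naive with sham, whose same-numbered arrays deviated together at r = -0.22 to -0.02. Same-numbered hippocampus and cortex arrays did so at r = -0.16 to 0.45, and the labels do not say whether they came from the same rats. Under the fold rule the 1362 calls became 2356 with no filter and 1354 to 1760 with 1 array left out. The difference from the cortex, 0 calls, became 17 (75th percentile), 12 (quantile), 20 (authors' table), 5 (normexp) and 0 to 21 with 1 array left out, 1 without the fourth cortex naive and 21 without the third cortex sham array. With 75th percentile scaling and without that sham array together, chosen after seeing the data, it was 1235, and with the replicate block 0. The difference from 6 months, 1343 calls, became 4557 (75th percentile), 4834 (quantile), 4586 (authors' table), 775 (no filter), 630 (TBI arrays left out), 1271 (replicate block) and 925 to 4281 with 1 array left out, 3453 without the first and 4281 without the second 6-month naive array. The difference from 12 months stayed at 0 to 1 calls with 1 array left out. Where fewer arrays or more probes entered a fit the construction differs, and otherwise the cause was not tested. Of 79 genes followed through 17 alternatives, 0 reversed and 26 were called under each. A fit with slide as a random block was not run, since each group lies on 1 slide. Probes near background limit what can be compared.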
